A study of Homo sapiens
Mus musculus with 3 samples.

Results

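IVA12 is a mouse B-cell hybridoma line, and the wells described here are those of its cells that carried the most mRNA of 6 genes of the G2 phase and mitosis, set against wells that carried the least. The cells came from an equal mixture of Jurkat, TALL104, EL4 and IVA12 cells, with no treatment, that was dispensed as single cells into the nanowells of an iCELL8 cx chip and sequenced at the 3′ end of the mRNA. There were 3 libraries, of which 2 came from the 3′DE kit (called DE1 and DE2 here) and 1 from a modified protocol with unique molecular identifiers (the UMI library). The study's methods give DE2 and the UMI library the same cell mixture, so the 3 libraries are not 3 independent cultures, and p-values measure the spread between libraries only. IVA12 is 1 clonal line in culture and stands for no animal.

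Wells were selected by reads in the deposited read tables. A well was kept with at least 1000 reads, at least 200 genes and under 10% human reads, and was called IVA12 where it held at least 3 reads of 5 B-cell genes and at least 3 times as many as of 5 T-cell genes. This left 867 IVA12 wells of 4782 barcodes: 440 in DE1, 229 in DE2 and 198 in the UMI library. Each well was then given a score, the share of its mouse reads that fell on Ube2c, Cdc20, Ccnb1, Plk1, Cenpf and Top2a. Within each library, wells at or above the 75th percentile were the high-score class (110, 58 and 50 wells; 218 in all) and wells at or below the median were the low-score class (220, 115 and 99 wells; 434 in all). The other 215 wells lay between and were used only to show the course of the values. The classes were chosen by measured reads, so the levels of the 6 score genes between them are a description and carry no test.

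The 6 score genes serve the passage through mitosis. Cyclin B1, from Ccnb1, activates the kinase CDK1 at entry, and Plk1 is a kinase of centrosome maturation and spindle assembly. Cenpf is a kinetochore protein that accumulates in G2, and Cdc20 and Ube2c are the activator and the ubiquitin-conjugating enzyme of the anaphase-promoting complex, which destroys cyclin B1. Top2a, the topoisomerase that untangles sister chromatids, is made from S phase onwards, so its mRNA marks more of the cycle than mitosis alone. A hybridoma in culture divides without synchrony, so its cells are sampled at different points of the cycle.

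The levels of the genes that made the line assignment are shaped by the rule, so they are a description and no check of it. Marker genes outside the rule were not examined. Of the 5 B-cell genes, 4 were read at 130.2 to 1131 CPM (counts per 1000000 mouse reads, summed over IVA12 wells) in every library. The remaining B-cell gene had no read in any IVA12 well. The 5 T-cell genes stood at 0 to 10.1 CPM in DE1 and the UMI library, but reached 22.0 CPM in DE2, where 65.5% of IVA12 wells held a read of the most abundant of them. Human wells, which should lack mouse mRNA, also held stray reads: a Top2a read was found in 15.4%, 26.2% and 6.46% of them in DE1, DE2 and the UMI library, against 89.3%, 83.8% and 75.8% of IVA12 wells, at median depths of 21426, 34368 and 16457 reads in human wells and 20319, 30543 and 36305 in IVA12 wells. Barcodes were also shared: 58 IVA12 barcodes of DE1 recurred in DE2, 47 in the UMI library, and 14 were in all 3. The paper states that oligonucleotides are pre-printed on the chips, and how often barcodes recurred over all wells is not given here. The part of stray reads and of shared barcodes in the differences below was not tested.

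The median score was 2577 CPM in high-score wells and 646.5 in low-score wells of DE1. In DE2 the medians were 2997 and 680.1, and in the UMI library 3570 and 468.6. The last well inside the high-score class had 2039 CPM in DE1 and the first outside had 2023. The pair was 2345 and 2326 in DE2, and 2668 and 2658 in the UMI library. The limits are percentiles of the score itself, so the class is a range of it, and whether it holds a separate population was not tested. A score of 0 was found in 9, 12 and 25 wells of the 3 libraries, in the same order.

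**Figure D1:**
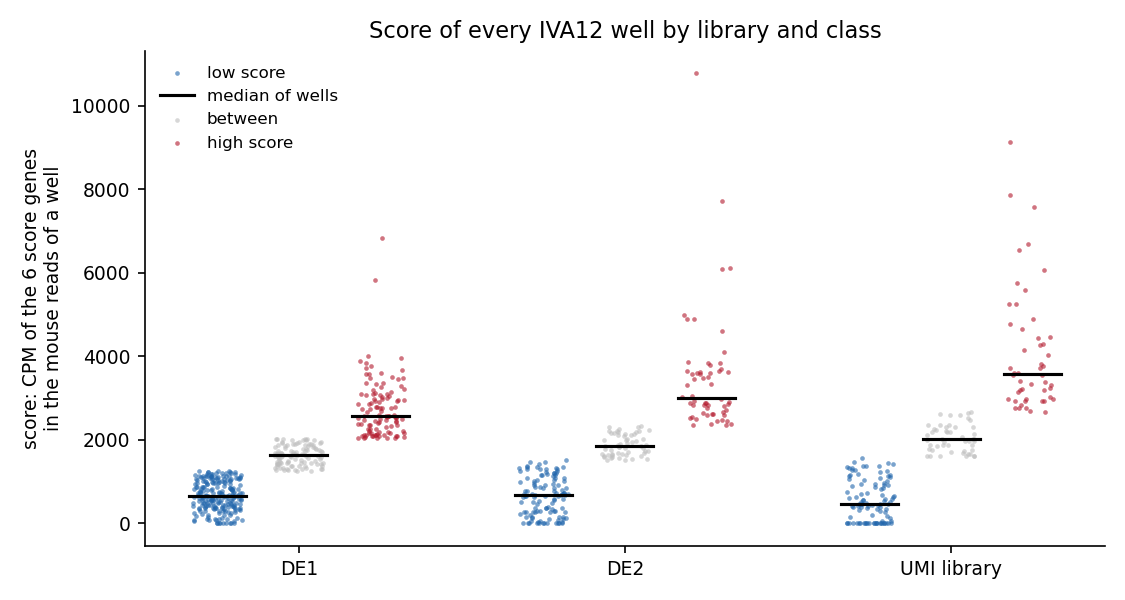
Score of each of the 867 IVA12 wells (CPM of the 6 score genes), by library and class, with the median of each class as a black bar. The limits between classes are percentiles of the score within each library, and the highest well reached 10773 CPM, in DE2.

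Top2a dominated the score. It gave 51.6%, 56.4% and 56.8% of all score reads of IVA12 wells in DE1, DE2 and the UMI library. It made up over 50% of the score reads in 64 of the 110, 31 of the 58 and 32 of the 50 high-score wells. With Top2a left out of the score, 71 of the 110, 38 of the 58 and 30 of the 50 wells were still at or above the 75th percentile. The remaining high-score wells were in the class through their Top2a reads.

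Few wells held all 6 mRNAs at once. After wells were thinned to 5000 reads, high-score wells held a read of a median of 4, 3 and 3 of the 6 genes in the 3 libraries, and low-score wells of 2, 1 and 1. At least 4 of the 6 genes were read in 71 of 105, 24 of 55 and 21 of 49 high-score wells. Among low-score wells it was 8 of 210, 6 of 106 and 0 of 97. All 6 were read in 5 wells of the high-score class of DE1, and in none of the other high-score wells.

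The levels of the score genes, summed over the wells of a class, differed by factors that were unlike from gene to gene. Top2a stood at 1451, 1660 and 2188 CPM in high-score wells of DE1, DE2 and the UMI library, and at 286.8, 448.6 and 351.0 in low-score wells. Cenpf stood at 405.0, 501.9 and 481.4 CPM against 67.8, 71.2 and 56.2. Over the 3 libraries the Cenpf log2 difference, 2.81 ± 0.26 (SD, n = 3 libraries), was the largest of the 6, with Top2a at 2.29 ± 0.38.

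For the anaphase-promoting complex, Ube2c stood at 236.6, 264.1 and 242.3 CPM in high-score wells and at 68.3, 46.7 and 29.9 in low-score wells. Its co-activator Cdc20 stood at 150.9, 140.4 and 180.4 CPM against 59.2, 48.2 and 60.5. The log2 differences were 2.41 ± 0.60 for Ube2c and 1.47 ± 0.12 for Cdc20 (SD, n = 3).

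The kinase gene Plk1 stood at 175.0, 130.6 and 168.5 CPM in high-score wells and at 39.7, 51.2 and 42.2 in low-score wells, a log2 difference of 1.81 ± 0.42 (SD, n = 3). Ccnb1, the cyclin gene, stood at 273.5, 259.3 and 471.5 CPM against 141.3, 122.4 and 115.1, a log2 difference of 1.35 ± 0.59, the smallest of the 6. The high-score and low-score sums did not overlap for any of the 6 genes, which follows from how the wells were chosen. Single wells weighed on these sums outside DE1, where no well gave over 6.27% of the high-score reads of any of the 6 genes. In DE2 1 well gave 22.7% of the Ube2c and 22.3% of the Cdc20 reads of the class, and in the UMI library 1 well gave 25% of the Cdc20 reads. Wells between the classes had intermediate levels except for Plk1 in the UMI library, where they stood at 176.7 CPM, above the high-score wells.

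**Figure D2:**
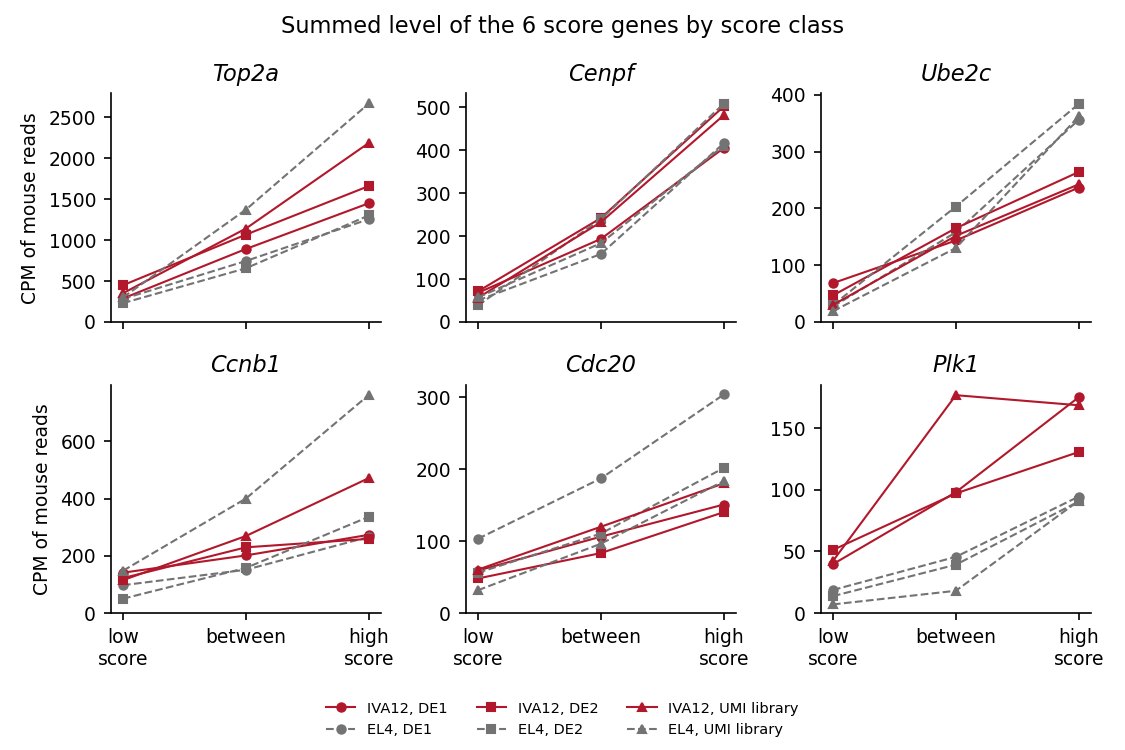
Level of the 6 score genes in low-score, between and high-score wells (CPM of the summed mouse reads, 1 point per library and class), with IVA12 in solid red and EL4 in dashed grey. Top2a in IVA12 ran from 286.8 to 1451 CPM in DE1, and Plk1 in the UMI library had its highest point between the classes.

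To test the score genes on reads that had not chosen the wells, the classes were made anew from 3 of the genes and the other 3 were tested with edgeR's quasi-likelihood test on sums per library and class. With classes made from Ube2c, Cdc20 and Ccnb1, Cenpf stood at 295.3, 463.4 and 427.0 CPM in high-score wells and at 124.4, 113.3 and 110.2 in low-score wells of the 3 libraries. The sums did not overlap, and the log2 difference was 1.76 ± 0.20 (SE; adjusted p = 0.0386, edgeR, 8932 genes tested), 1 of the 2 genes called higher in that fit (0.0224% of genes tested). Top2a stood at 797.7, 1085 and 1408 CPM against 669.5, 735.6 and 737.5, a log2 difference of 0.59 ± 0.14 that did not pass (adjusted p = 0.850, edgeR). Plk1, at 130.7, 104.0 and 150.2 CPM against 67.0, 56.7 and 99.2, had a log2 difference of 0.82 ± 0.25 and did not pass either (adjusted p = 0.982, edgeR).

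With classes made from Plk1, Cenpf and Top2a instead, Ube2c stood at 188.9, 198.1 and 199.9 CPM in high-score wells and at 86.7, 73.4 and 62.0 in low-score wells. Its log2 difference of 1.41 ± 0.21 (SE) lay just outside the threshold (adjusted p = 0.0522, edgeR, 9291 genes tested), in a fit that called 8 genes higher (0.0861%). Cdc20 and Ccnb1 had log2 differences of 0.69 ± 0.23 and 0.72 ± 0.23 (adjusted p = 0.757 for both, edgeR). All 6 genes were higher in the high-score sums of all 3 libraries, but only Cenpf passed.

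The sets of wells chosen by the 2 groups of 3 genes overlapped little in IVA12. Of the wells at or above the 75th percentile by Ube2c, Cdc20 and Ccnb1, 38 of 110 in DE1 (34.5%) were also there by Plk1, Cenpf and Top2a, where 25% of all IVA12 wells were. In DE2 it was 16 of 58 (27.6%, against 25.3% of all wells) and in the UMI library 19 of 50 (38.0%, against 25.3%). In wells of EL4, the mouse T-cell lymphoma line of the same mixture, chosen by the mirrored rule, the shares were 45.3%, 45.2% and 37.6%. Reads of these genes are sparse in single wells, and these shares are descriptions over wells, not over replicates.

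Genes outside the score were compared between high-score and low-score wells with reads summed per library and class (6 sums, library as a block). Of 9313 genes tested, 10 were higher in high-score wells (0.107%) and 1 was lower (0.0107%) at an adjusted p under 0.05 in edgeR's quasi-likelihood test. At an unadjusted p under 0.05 there were 236 higher and 262 lower genes, 5.35% of those tested. The median log2 difference of all genes was -0.03. DESeq2 called 35 genes higher and 10 lower, with all 11 edgeR calls among them. The count rested on the libraries: without DE1 there were 4 higher genes, and without DE2 there were 24. Without the library as a block no gene passed (125 higher and 90 lower at an unadjusted p under 0.05, edgeR).

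The deposited tables give mouse genes by Ensembl identifier and do not pair them with symbols, so genes other than the 6 of the score are given by identifier. ENSMUSG00000020897 had the largest difference among the genes called higher. It stood at 84.7, 144.5 and 179.7 CPM in high-score wells of DE1, DE2 and the UMI library and at 25.8, 30.4 and 43.7 CPM in low-score wells, with 63.7, 144.0 and 115.9 CPM in wells between. The sums did not overlap, and the log2 difference was 2.0 ± 0.26 (SE; adjusted p = 0.0296, edgeR). The call was lost without DE1 (log2 difference 2.12, adjusted p = 0.0779, edgeR) and in wells thinned to 5000 reads (1.51, adjusted p = 0.161). It was also lost with classes cut within 3 strata of depth (1.76, adjusted p = 0.0582, edgeR) and at the 90th percentile (2.47, adjusted p = 0.147). The value was smaller and did not pass without Top2a in the score (0.92, adjusted p = 0.775, edgeR). The same held with classes from Ube2c, Cdc20 and Ccnb1 (0.72, adjusted p = 0.982, edgeR).

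ENSMUSG00000045328 was the next largest. It stood at 526.1, 600.4 and 614.4 CPM in high-score wells, at 399.9, 302.7 and 437.7 CPM in wells between and at 173.2, 191.8 and 201.2 CPM in low-score wells. Each library thus placed the wells between at an intermediate level, and the log2 difference of 1.61 ± 0.13 (SE) had the lowest adjusted p of all genes (0.00312, edgeR). It passed in all 3 fits that left out a library, with log2 differences of 1.58 to 1.61, and did not pass without Top2a in the score (1.26, adjusted p = 0.0655, edgeR) or with classes from Ube2c, Cdc20 and Ccnb1 (1.17, adjusted p = 0.324).

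The remaining 8 higher genes had log2 differences between 0.86 and 1.53. All 10 had the same sign in each library, which a test with the library as a block favours. Of all genes, 13.5% were positive in all 3 libraries. The 8 depended on the score: with classes from Ube2c, Cdc20 and Ccnb1 their log2 differences were 0.17 to 1.11 and 1 passed, and without Top2a in the score they were 0.32 to 1.44 and 2 passed, while with classes from Plk1, Cenpf and Top2a they were 0.79 to 1.45 and 6 passed (edgeR). In 9 of the 10, the wells between lay between the other classes in every library. The share of all genes with this order was not computed, and the wells between have intermediate scores by definition. The 10 genes had mean levels of 84.8 to 1286 CPM.

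The gene called lower, ENSMUSG00000025001, stood at 380.4, 198.3 and 175.3 CPM in high-score wells and at 651.4, 460.7 and 451.3 CPM in low-score wells. Wells between had 541.9, 352.5 and 266.1 CPM, again intermediate in every library. The log2 difference was -1.13 ± 0.15 (SE; adjusted p = 0.0288, edgeR), and it passed without each library in turn. It did not pass in thinned wells (-0.87, adjusted p = 0.0761, edgeR) or with classes cut within 3 strata of depth (-1.13, adjusted p = 0.0653). The call was lost and the value smaller with classes from Ube2c, Cdc20 and Ccnb1 (-0.64, adjusted p = 0.850, edgeR) and without Top2a in the score (-0.66, adjusted p = 0.418), and with classes from Plk1, Cenpf and Top2a the adjusted p was 0.0599.

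**Figure D3:**
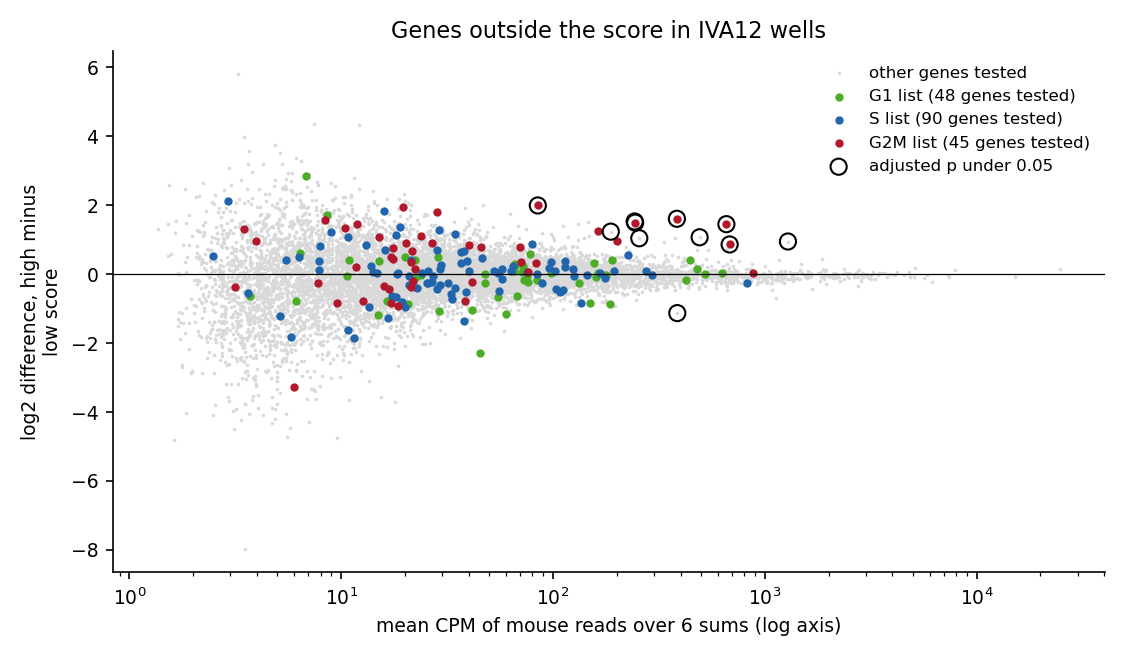
Log2 difference between high-score and low-score IVA12 wells against mean level (CPM, log axis) for the 9313 genes tested, with cell cycle lists in colour and genes with an adjusted p under 0.05 circled. The circled genes, 10 above and 1 below 0, have mean levels from 84.8 to 1286, and 5 of them are red points of the G2M list.

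Cell cycle genes were looked up in lists that do not need symbols, the mouse marker pairs distributed with the scran package, in which genes are paired by their order of expression in G1, S and G2/M cells. Genes placed higher in 1 phase only gave a G2M list of 49 genes (4 score genes left out), an S list of 101 and a G1 list of 57, of which 56 were in the tables. The lists rest on order of expression, and what their members do was not looked up.

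Genes of the G2M list stood higher in high-score wells, and some of them passed the test one by one. Of 45 G2M genes tested, 5 were called higher and none lower (edgeR; 11 higher and 0 lower at an unadjusted p under 0.05), beside 0.107% higher among all genes. Their median log2 difference was 0.66, beside -0.03 over all genes, and 32 of 45 were positive (71.1%, against 47.6% of all genes). In 19 of 45 (42.2%) the difference was positive in all 3 libraries, against 13.5% of all genes. The median depended on how the classes were made, at 0.46 in thinned wells, 0.39 without Top2a in the score and 0.25 with classes from Ube2c, Cdc20 and Ccnb1. It also fell with unchanged classes, to 0.45 without DE1, 0.49 without DE2 and 0.45 without the UMI library. With UMI counts in the UMI library it was 0.48.

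Summed over its genes, the G2M list stood at 5203, 5131 and 5687 CPM in high-score wells of DE1, DE2 and the UMI library, at 4420, 4568 and 4627 CPM in wells between, and at 3110, 3055 and 3099 CPM in low-score wells. The 3 libraries gave close values, and no high-score sum reached down to a low-score one. The log2 difference was 0.79 ± 0.08 (SD, n = 3 libraries), or 1.73-fold. The list holds no gene of the score. It does include the 5 genes called one by one, so the sum is not independent of those calls. Of these 5, ENSMUSG00000045328 alone went from 173.2 CPM in low-score to 526.1 in high-score wells of DE1. A sum without the 5 was not made, and 25% of the list's genes tested had log2 differences at or below -0.22.

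The S and G1 lists differed between the classes by less than the spread between libraries. The S list stood at 5529, 5323 and 5837 CPM in high-score wells and at 5205, 5445 and 5954 CPM in low-score wells, a log2 difference of 0.01 ± 0.07 (SD, n = 3). The direction was not the same in all libraries. The G1 list stood at 5312, 5312 and 4974 CPM against 4942, 5480 and 5653, a log2 difference of -0.04 ± 0.14. None of the 90 S genes and none of the 48 G1 genes tested passed in edgeR. Only 0.107% of all genes passed as higher and 0.0107% as lower, so lists of this size would seldom hold a call. At an unadjusted p under 0.05 (edgeR), 4 S genes were higher and 4 lower, and 1 G1 gene was higher and 5 lower. Over all 9313 genes it was 236 higher and 262 lower. The difference was negative in all 3 libraries for 25% of G1 genes and 15.6% of S genes, against 15.5% of all genes. Median log2 differences of single genes were 0.04 for the S list and -0.03 for the G1 list.

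**Figure D4:**
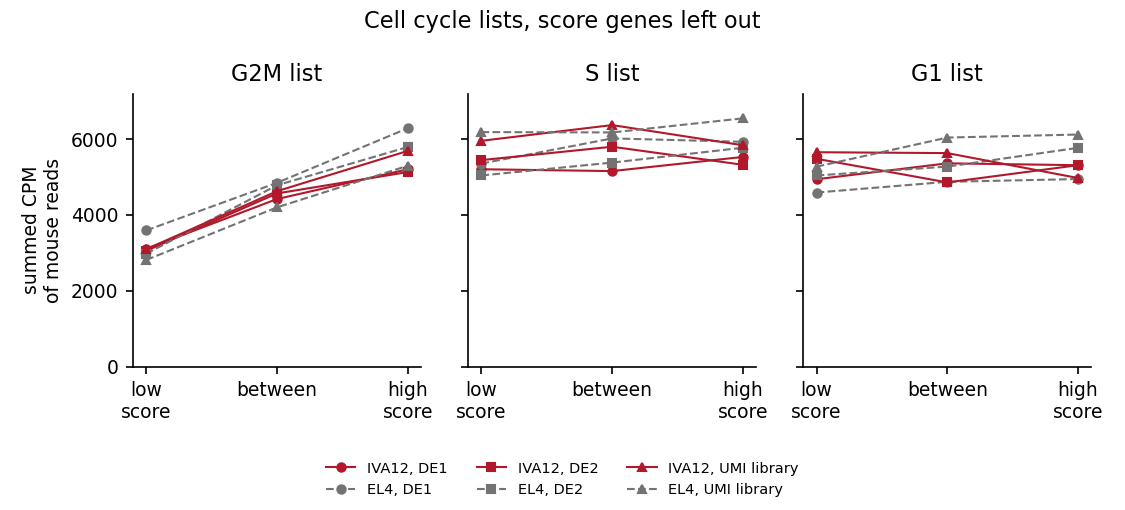
Summed level (CPM) of the G2M, S and G1 lists, score genes left out, in low-score, between and high-score wells of IVA12 (solid red) and EL4 (dashed grey), 1 point per library and class. The G2M list climbs over the classes in every library, from 3110 to 5203 CPM in IVA12 wells of DE1, while the S and G1 lists stay between 4591 and 6545 CPM.

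Cell cycle position was also scored well by well. In wells thinned to 5000 reads, the share of scran's G2M gene pairs found in the G2M order, with pairs of score genes left out, had medians of 47.2%, 47.6% and 49.9% in high-score wells and of 39.8%, 41.4% and 40.4% in low-score wells of the 3 libraries. The share of G1 pairs in the G1 order was lower in high-score wells, with medians of 48.8%, 50.4% and 47.4% in high-score wells and 56.6%, 54.5% and 54.1% in low-score wells. In 98.3% of the G1 pairs the gene set against the G1 gene is also placed higher in at least 1 G2M pair. Pairs that recur in reverse as G2M pairs are 6.31% of the G1 pairs. The G1 and G2M shares thus draw on shared genes and are not independent observations. The part of G2M genes in the lower G1 shares was not tested. The summed level of the G1 list did not differ beyond the spread between libraries. The mean differences between classes were 7.68 ± 1.72 percentage points for G2M pairs and -6.18 ± 1.90 for G1 pairs (SD, n = 3 libraries). The S pairs differed by -0.71 ± 1.39 points, less than the spread between libraries. No test of these measures was run; an exact permutation of signs over 3 libraries cannot fall below p = 0.25.

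High-score wells were also deeper in 2 of the 3 libraries. Median depth was 20225 reads in high-score and 20187 in low-score wells of DE1, 33911 and 27169 in DE2, and 42693 and 34189 in the UMI library. At an equal 5000 reads, high-score wells held a median of 1639, 1580 and 1228 genes and low-score wells 1596, 1528 and 1153. With the high-score class narrowed to wells at or above the 90th percentile the order of depth turned, to 20067, 13928 and 28802 reads in high-score wells. Genes at equal depth turned as well in DE2 and the UMI library, to 1446 and 1121 in high-score wells, and were 1609 in DE1. Depth was taken up by cutting the classes within 3 strata of depth, which called 6 genes higher (all 6 of them among the 10) and none lower.

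The sums leaned on few wells in DE2, where the deepest 10% of wells gave 44.6% of the reads of high-score and 42.6% of low-score wells and the deepest high-score well gave 10.2%. In DE1 the shares of the deepest 10% were 15.7% and 16.1%. Reads of the 5 B-cell genes had medians over wells of 1411, 1167 and 1329 CPM in high-score wells and of 1732, 1494 and 2225 in low-score wells. In the sums over wells they stood at 1384, 1320 and 1500 CPM against 1795, 1277 and 2190, so DE2 went the other way there. Their part in the other differences was not tested.

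The same comparison in EL4 wells showed how much of the pattern the lines share. EL4 had 1392 wells, of which 350 were high-score and 697 low-score, and 58 of 9724 genes were called higher (0.596%) and 11 lower (0.113%) in edgeR. Of the 10 genes higher in IVA12, 9 were called higher in EL4, which is 90% of the IVA12 list and 15.5% of the EL4 list. The exception was ENSMUSG00000020897, with a log2 difference of 1.04 ± 0.29 (SE; adjusted p = 0.184, edgeR) in EL4. Of the 58 EL4 genes, 57 had positive differences in IVA12, against 47.6% of all genes tested in IVA12. The gene lower in IVA12, ENSMUSG00000025001, had a log2 difference of -0.29 ± 0.13 in EL4 (adjusted p = 0.530, edgeR).

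No gene passed the test of a difference between the lines. The interaction of class and line, tested on 12 sums over 10678 genes in edgeR, called 0 genes (0%), with 592 at an unadjusted p under 0.05, and DESeq2 called 5. ENSMUSG00000025001, chosen because it passed in IVA12, had an interaction log2 difference of -0.88 (IVA12 minus EL4, adjusted p = 0.765, edgeR), and ENSMUSG00000020897 had 0.92 (adjusted p = 0.895). Both changed more in IVA12 than in EL4. ENSMUSG00000045328 rose less in IVA12, with -0.49 (adjusted p = 0.891, edgeR). The lowest value among the other 8 higher genes was -0.97 (adjusted p = 0.765, edgeR), also a smaller rise in IVA12. The G2M list was higher in high-score wells by 0.79 ± 0.08 on the log2 scale in IVA12 and by 0.89 ± 0.08 in EL4 (SD, n = 3 libraries each), and the EL4 difference was the larger in each library, by 0.06, 0.21 and 0.04. The S and G1 lists differed by 0.14 ± 0.06 and 0.17 ± 0.06 in EL4, beside 0.01 ± 0.07 and -0.04 ± 0.14 in IVA12. Paired by library, the EL4 value exceeded the IVA12 value by 0.06, 0.23 and 0.11 for the S list and by 0.0035, 0.24 and 0.40 for the G1 list, and these differences between lines were not tested.

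Among the score genes, Ube2c separated the EL4 classes more widely than the IVA12 classes, with log2 differences of 3.71, 3.70 and 4.26 in EL4 and 1.79, 2.50 and 3.02 in IVA12 in the 3 libraries. This is a description, since Ube2c helped to choose the wells. With classes made from Plk1, Cenpf and Top2a in both lines, the Ube2c interaction was -0.77 ± 0.28 on the log2 scale (SE; unadjusted p = 0.0164, adjusted p = 0.946, edgeR), and with classes from Ube2c, Cdc20 and Ccnb1 the Plk1 interaction was -1.28 ± 0.40 (unadjusted p = 0.00717, adjusted p = 0.912), neither of which passed. The Cenpf interaction was 0.07 ± 0.27 (adjusted p = 0.994, edgeR).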

How the data were processed

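The authors processed reads with mappa v0.9 and STAR 2.7.0b, and UMIs with Drop-seq tools and STAR 2.4.2a, on a combined hg19 and mm10 reference (Cell Ranger 1.2.0). They deposited raw read counts per gene and well for 3 libraries, and UMI counts for the UMI library. Total counts were 35581264, 109702878 and 44883618 reads. The methods run these pipelines on downsampled reads, and whether the deposited tables are those outputs is not given in the sources used here. Read counts are not molecules, so PCR copies count repeatedly. The UMI alternative used UMI counts in the UMI library only, and DE1 and DE2 stayed as reads there.

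Reads were summed per library and class, filtered with filterByExpr, scaled by TMM and tested with edgeR 4.0.16 (quasi-likelihood, library as block, Benjamini-Hochberg, threshold 0.05). The fits were also run on simulated sums. Those did not copy the choice of wells by score, and their outcome is not given here. The 6 score genes and 10 line genes were left out of the main tests, and a score gene was tested only where the other 3 made the classes. DESeq2 1.42.0 and other settings were alternatives. Gene pairs came from scran 1.30.0 and, like the lists made from them, were taken up after the tables had been seen, because planned symbol lists (replication, immunoglobulin, mitochondrial and others) could not be matched to identifiers. The named-gene rule took called genes by log2 difference, with equal sign in all libraries and a mean of at least 50 CPM, and here gives at most 2 per direction. The members and lists were chosen with earlier results of these data known. A gene pair share needed at least 20 unequal pairs per well. Pairing by library comes from the design. R 4.3.3 was used.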

Additional observations from a re-analysis of the deposited data

How the results depend on the processing

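Main counts were 10 higher and 1 lower gene of 9313 in edgeR. The counts of higher and lower genes were 35 and 10 with DESeq2, 35 and 21 with no filter on low counts, 0 and 0 without the library as a replicate block, 6 and 0 with classes within 3 strata of depth, 30 and 4 with UMI counts in the UMI library, 2 and 0 with the high-score class narrowed to the 90th percentile, 2 and 0 with a score of Ube2c, Cdc20 and Ccnb1, 8 and 0 with a score of Plk1, Cenpf and Top2a, and 0 and 0 at an adjusted p of 1e-04. A score without Top2a, added after the data were seen, gave 2 and 1. The lower gene there was not ENSMUSG00000025001, which had an adjusted p of 0.418 (edgeR). Leaving out each library gave 4 to 24 higher and 1 to 5 lower genes. Of the 10 higher genes, 4 were called again without DE1, 10 without DE2 and 8 without the UMI library. The interaction called 5 genes with DESeq2, and 0 to 1 when a library was left out. It called 0 in the other alternatives, so the replicate block changed no call there. The log2 ratio of median depth, 0.21 in the main classes, was -0.41 at the 90th percentile, that of genes per well, 0.11, was -0.17 there and 0.060 in thinned wells, and that of genes at equal depth, 0.06, was -0.036 at the 90th percentile. The causes were not tested.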
